A study of Mus musculus with 9 samples.

Results

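The genes of the cytoplasmic ribosome were examined in ChIC-Seq peak lists of PBRM1 and BRG1 from mouse oviductal smooth muscle cells. The genes were chosen by name. Every protein-coding gene of GENCODE vM21 with a symbol of *Rpl*, *Rplp* or *Rps*, then a number, then at most 1 letter (a, x, y or l) with or without further digits was taken. Symbols with longer endings, such as those of the kinases of ribosomal protein S6, were not taken. This rule found 82 of 21951 protein-coding genes. Of these, 43 encode core proteins of the large subunit, 3 the proteins of the ribosomal stalk, 30 core proteins of the small subunit, and 6 are paralogues of core genes (*Rpl3l*, *Rpl7l1*, *Rpl10l*, *Rpl22l1*, *Rpl39l* and *Rps27l*). The 82 genes lie on 19 chromosomes, with 14 on chromosome 7 and 4 on the X chromosome. The rule used no measured value.

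The cells were wild-type (WT) primary oviductal muscle cells from female mice of 8 to 12 weeks that had been mated with stud males and were on D2 (day 2) of pregnancy. Oviducts were digested with enzymes, and the cells were filtered, plated for some hours and fixed before use, so they had been in culture and were not sorted. Libraries of 50000 cells were made with an antibody against PBRM1 (labelled Baf180) or against BRG1, with 3 replicates each. A control group of 3 IgG libraries was not analysed here, and no control was given to the peak caller. The labels do not say whether replicates came from separate animals or cultures, so p-values measure only the spread between these libraries, which may be technical.

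Ribosomal proteins assemble with ribosomal RNA into the large and small subunits, and nearly every growing cell transcribes their genes at a high rate. Their mRNAs begin with a C and a run of pyrimidines, the TOP (terminal oligopyrimidine) tract, through which their translation follows nutrient and growth signals. PBRM1 targets the PBAF form of the SWI/SNF remodeling complex to chromatin, and BRG1 is an ATPase found in PBAF and in other SWI/SNF complexes. In ChIC-Seq, an antibody brings a micrococcal nuclease to its target and the DNA cut loose around it is sequenced.

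The PBRM1 libraries held 18126049 to 23992352 fragments and the BRG1 libraries 14284532 to 15897724. Each library had 31970 to 39467 peaks, and each antibody also had a list called on its pooled replicates. Among markers of smooth muscle, 5 of 8 had a promoter peak in all 6 replicate lists, whereas *Cnn1* had none and *Myh11* had one in 1 list. Of 6 epithelial, 2 endothelial and 1 leukocyte markers, none had a peak in all 6 lists. A peak at a promoter is not a measure of transcription. Peak heights are given in FPM, the fragments over the summit (the pileup) per 1000000 fragments of the library. Between replicates of an antibody, FPM values over 9102 genes had a Pearson correlation of 0.986 to 0.996. Between libraries of different antibodies it was 0.946 to 0.957. Over ribosomal protein genes alone, with a peak in all 6 lists and on log2 values, replicates of an antibody correlated at 0.68 to 0.80. The scale and the range of levels differ between these values, so they do not show which genes were more reproducible.

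Promoter sequence of selected genes is shown first, for reference, since the positions of summits were measured from these starts. Each line gives 130 bases before and 20 bases from the annotated start of the main transcript, 5' to 3' on the gene's strand, read from GRCm38.p6. Capitals mark the ETS word CGGAAG, the YY1 word AAGATGG and the 10-base ZBTB33 palindrome on either strand, and a start tract of C with at least 4 further pyrimidines. *Rpl18* and *Rps29* had the highest peaks of the large and small subunits. *Rpl37* and *Rps21* hold several ETS words and a start tract, *Rps6* holds the palindrome, and *Rps24* has the longest start tract of the 82 genes. *Rpl14* had the largest difference between antibodies, *Rpl8* had peaks for BRG1 alone, and *Rpl3l* and *Rpl10l* had no peak in any list.
*Rpl18* (chr7:45715327-45715476, plus strand): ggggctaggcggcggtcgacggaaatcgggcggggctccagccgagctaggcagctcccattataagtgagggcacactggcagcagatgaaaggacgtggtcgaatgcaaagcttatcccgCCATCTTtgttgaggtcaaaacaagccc
*Rps29* (chr12:69159167-69159316, minus strand): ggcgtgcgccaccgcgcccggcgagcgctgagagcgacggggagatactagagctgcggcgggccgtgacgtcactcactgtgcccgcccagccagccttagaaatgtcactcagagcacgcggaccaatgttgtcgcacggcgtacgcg
*Rpl37* (chr15:5116515-5116664, plus strand): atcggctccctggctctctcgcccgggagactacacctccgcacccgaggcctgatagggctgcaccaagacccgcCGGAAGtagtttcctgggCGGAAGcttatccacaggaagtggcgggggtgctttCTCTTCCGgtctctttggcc
*Rps21* (chr2:180257247-180257396, plus strand): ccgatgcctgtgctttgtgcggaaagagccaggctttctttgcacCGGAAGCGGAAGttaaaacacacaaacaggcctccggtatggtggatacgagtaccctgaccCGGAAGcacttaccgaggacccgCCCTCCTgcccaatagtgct
*Rps6* (chr4:86857393-86857542, minus strand): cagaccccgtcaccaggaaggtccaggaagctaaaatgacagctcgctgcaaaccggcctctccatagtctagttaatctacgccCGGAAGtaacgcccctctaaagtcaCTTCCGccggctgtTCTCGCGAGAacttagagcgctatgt
*Rps24* (chr14:24490588-24490737, plus strand): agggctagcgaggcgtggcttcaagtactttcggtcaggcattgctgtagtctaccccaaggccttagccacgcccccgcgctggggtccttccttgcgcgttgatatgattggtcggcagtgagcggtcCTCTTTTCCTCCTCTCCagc
*Rpl14* (chr9:120571314-120571463, plus strand): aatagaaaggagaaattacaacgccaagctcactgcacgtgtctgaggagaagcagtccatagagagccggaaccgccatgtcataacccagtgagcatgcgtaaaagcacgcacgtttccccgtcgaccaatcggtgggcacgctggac
*Rpl8* (chr15:76903948-76904097, plus strand): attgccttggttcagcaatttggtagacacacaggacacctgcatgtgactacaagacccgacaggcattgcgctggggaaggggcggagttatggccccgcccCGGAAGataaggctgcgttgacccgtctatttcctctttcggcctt
*Rpl3l* (chr17:24727690-24727839, plus strand): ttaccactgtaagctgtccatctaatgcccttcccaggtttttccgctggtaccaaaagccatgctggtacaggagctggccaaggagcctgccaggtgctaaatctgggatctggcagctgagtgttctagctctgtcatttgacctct
*Rpl10l* (chr12:66284382-66284531, minus strand): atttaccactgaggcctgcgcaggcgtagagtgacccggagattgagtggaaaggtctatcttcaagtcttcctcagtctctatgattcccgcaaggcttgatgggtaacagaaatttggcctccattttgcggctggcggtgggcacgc

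The first question was whether the promoters of these genes carried reproducible peaks of both proteins. A promoter peak was a peak with its summit within 2 kb of the start of any annotated transcript of the gene. In all 6 replicate lists, 57 of 82 ribosomal protein genes had a promoter peak (69.5%), against 41.5% of all protein-coding genes. All 3 PBRM1 lists held a peak at 62 of the genes (75.6%, against 43.9% of all genes), and all 3 BRG1 lists at 65 (79.3%, against 49.6%). At least 4 lists held a peak at 73 of the 82, against 53.2% of all genes. Only 2 of the 82 lacked a peak in every replicate list, against 34.9% of all genes. These shares are descriptions and carry no test, since the genes of a list are not replicates.

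By library, PBRM1 peaks were found at 71, 67 and 73 of the genes in replicates 1 to 3, and BRG1 peaks at 74, 72 and 74. The shares over all genes were 53.6%, 50.8% and 51.8% for PBRM1 and 57.7%, 54.7% and 56.9% for BRG1. The counts of the antibodies overlapped, since PBRM1 replicate 3 was above BRG1 replicate 2. In the pooled lists, 78 of the 82 had a PBRM1 peak (65.4% of all genes) and 80 had a BRG1 peak (67.3% of all genes). Every one of the 76 core genes had a peak in the pooled BRG1 list and 75 had one in the pooled PBRM1 list. Pooled lists rest on more fragments and hold more peaks than single libraries.

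Support was then counted by subunit. Peaks in all 6 lists were found at 30 of 43 core genes of the large subunit, at 3 of 3 stalk genes, at 21 of 30 core genes of the small subunit and at 3 of 6 paralogues. Other genes of the translation machinery are given for scale. All 5 ribosomal protein genes with other kinds of symbol (such as *Rpsa* and *Rack1*) had a peak in all 6 lists, as did 14 of 14 translation factors and other genes with TOP mRNAs, 18 of 20 genes of ribosome biogenesis and 70 of 78 genes for mitochondrial ribosomal proteins (89.7%). By contrast, 4 of 294 pseudogenes named after a ribosomal protein had a peak in all 6 lists, and 259 had none in any list.

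**Figure D1:**
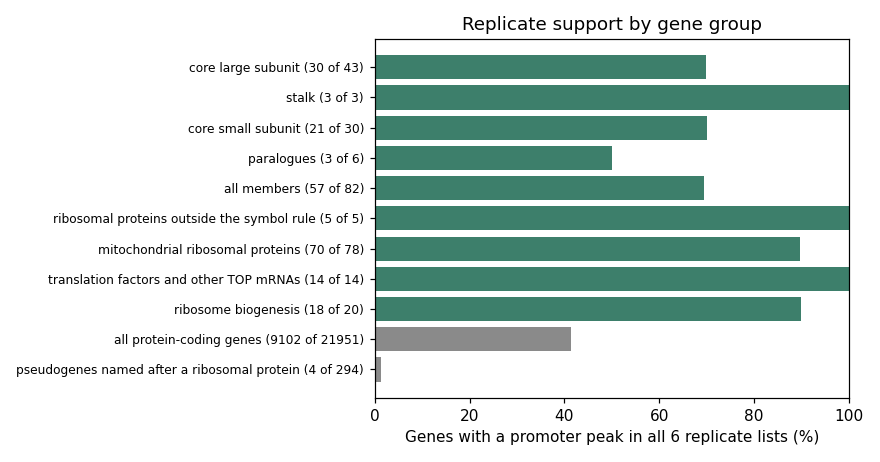
Horizontal bars show the share of genes (%) with a promoter peak in all 6 replicate lists for each gene group, with counts beside the names; "members" are the ribosomal protein genes. The 82 genes reach 69.5%, above the 41.5% of all protein-coding genes and below the 89.7% of mitochondrial ribosomal proteins.

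Processed pseudogenes resemble the exons of their parents, so a measure of repeated sequence was taken at the starts. Around the main start, the median share of 31-base words found elsewhere in the genome was 2.21% in the 57 genes with full support, 1.85% in the other 25 and 0% in mitochondrial ribosomal protein genes. The share was over 10% in 9 of the 57, in 5 of the 25 and in 4 of the 78. The highest was 42.1% at *Rpl37a*, which still had a peak in all 6 lists. Its part in the number of lists with a peak was not tested.

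Of the 23 genes with partial support, 10 lacked a peak in 1 list only and 6 in 2 lists. *Rpl8*, a core protein near the peptidyl transferase center, had peaks in 2 BRG1 lists but no PBRM1 list, and no other of the 82 genes had at least 2 lists of a single antibody alone. Its level was 1.32 FPM in BRG1 replicate 1 and 1.40 in BRG1 replicate 2, and no peak was listed in BRG1 replicate 3 or in any PBRM1 library. Of all genes, 2.15% showed this pattern. The reverse pattern was found at 0 of the 82 genes, against 0.601% of all genes.

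Of the 82 genes, 8 had peaks in all 3 BRG1 lists but not in all 3 PBRM1 lists (8.17% of all genes), and 5 had the opposite (2.39% of all genes). *Rps24*, a small-subunit gene, had BRG1 levels of 2.77, 1.82 and 2.33 FPM, with summits at -62, -56 and -44 bp from its main start. Among the PBRM1 replicates it had a peak in replicate 2 alone. The highest of that library lay 13 bp from the start of *Polr3a*, a gene for a subunit of RNA polymerase III, and another at 76 bp from the start of *Rps24* reached 1.21 FPM. *Rps28* and *Rps15a* also had 3 BRG1 lists and 1 PBRM1 list. The pooled PBRM1 list held a peak at each of these genes, and at *Rps24* it had one at -53 bp with 0.89 FPM. A list without a peak shows that a site did not pass the caller's threshold and not that the protein was absent.

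In the replicate lists, *Rpl13* had summits in different places for the antibodies. The BRG1 summits lay at -17 bp in replicate 1 and -33 bp in replicate 3, with pileups of 3.08 and 3.66 FPM. The PBRM1 summits lay at -1742, -1808 and -1789 bp, with pileups of 1.41, 1.21 and 1.00. In the pooled PBRM1 list, the highest peak of *Rpl13* was at -33 bp, with 1.50 FPM. The difference in place is thus one between replicate lists and was not seen after pooling. BRG1 replicate 2 listed no *Rpl13* peak.

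The paralogues divided into those with full support and those with almost none. *Rpl3l*, the striated muscle form of *Rpl3*, and *Rpl10l*, a retrogene of *Rpl10* used in male germ cells, had no peak in any of the 8 lists. *Rpl39l*, another form known from the testis, had a single peak of 0.53 FPM in BRG1 replicate 3 and one in the pooled BRG1 list. Their parents *Rpl3*, *Rpl10* and *Rpl39* had peaks in all 6 lists.

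*Rps27l*, a paralogue of *Rps27* and a known p53 target, had PBRM1 pileups of 2.12, 1.43 and 1.42 FPM and BRG1 pileups of 2.58, 3.08 and 2.66. *Rps27* itself had 1.06, 1.21 and 1.08 for PBRM1 and 1.32, 1.61 and 0.93 for BRG1. All 6 libraries gave the paralogue the higher value. *Rpl7l1* had means of 1.21 ± 0.146 for PBRM1 and 1.89 ± 0.484 for BRG1 (SD, n = 3), close to the 1.28 ± 0.261 and 1.85 ± 0.547 of *Rpl7*. *Rpl22l1* had 1.18 ± 0.196 and 1.91 ± 0.126, and *Rpl22* had 1.44 ± 0.345 and 1.89 ± 0.305, within the spread between replicates for both antibodies.

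The next question was how high the peaks were. The level used is the pileup, the number of fragments over the summit, in FPM. In the replicate lists the peaks of the 82 genes rested on 8 to 62 fragments, with a median of 27. For a count of 27, the 95% exact Poisson interval is 17.8 to 39.3 fragments, and for a count of 8 it is 3.45 to 15.8. These intervals cover counting error only.

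The median level over the listed ribosomal protein genes was 1.36, 1.27 and 1.13 FPM in the PBRM1 libraries and 1.92, 1.82 and 2.06 in the BRG1 libraries. The medians over other protein-coding genes with a peak were 1.26, 1.27 and 1.04 for PBRM1 and 1.70, 1.68 and 1.73 for BRG1. The medians of the ribosomal protein genes were equal to or above those of other genes in each library. Among genes with a peak in all 6 lists, where low peaks are fewer, the medians came closer. They were 1.30 for PBRM1 and 1.97 for BRG1 over the 57 ribosomal protein genes, against 1.28 and 1.94 over all 9102 genes. Fold enrichment over the local background, the deposited ratio, was 4.54 ± 0.273 for PBRM1 and 5.41 ± 0.409 for BRG1 at ribosomal protein genes, and 4.74 ± 0.166 and 5.47 ± 0.177 at other genes (medians per library, SD, n = 3).

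Ranked by mean log2 level among the 9102 genes, the 57 ribosomal protein genes covered a wide range. Their percentiles ran from 3.48 to 95.3 with a median of 53.5. Only 2 were in the top 10% and 4 in the bottom 10%. For comparison, the median percentile was 79.5 for the 14 genes with other TOP mRNAs and 46.3 for the mitochondrial ribosomal proteins.

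The 5 highest levels were at *Rps29*, *Rpl18*, *Rps19*, *Rpl37* and *Rpl13a*. *Rps29*, a small-subunit protein with a zinc-binding site, had 2.37, 3.14 and 2.54 FPM for PBRM1 and 3.21, 3.15 and 3.33 for BRG1. *Rpl18* had 2.37, 2.26 and 2.17 for PBRM1 and 3.90, 2.87 and 3.53 for BRG1. *Rps19*, known for mutations in Diamond-Blackfan anemia, had 1.82, 2.26 and 1.83 for PBRM1 and 3.08, 3.29 and 3.19 for BRG1. In these 3 genes every BRG1 library was above every PBRM1 library. *Rpl37* was the most even of the group, with 1.82, 1.82 and 1.79 for PBRM1 and 2.89, 2.80 and 3.13 for BRG1. *Rpl13a*, also known as part of a complex that inhibits translation in inflammation, had 1.82, 1.82 and 1.38 for PBRM1 and 2.83, 2.73 and 3.86 for BRG1.

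The 5 lowest levels among genes with full support were at *Rpl36a*, *Rps26*, *Rpl5*, *Rps23* and *Rpl37a*. *Rpl36a* had 0.96, 0.66 and 0.71 FPM for PBRM1 and 1.20, 1.05 and 0.73 for BRG1. *Rps26*, which contacts mRNA at the exit channel, had 0.96, 0.66 and 0.67 for PBRM1 and 0.94, 0.98 and 1.20 for BRG1. In both genes the antibodies overlapped. *Rps23*, a protein of the decoding center, had means of 0.853 ± 0.0837 for PBRM1 and 1.21 ± 0.143 for BRG1 (SD, n = 3). *Rpl37a* had 0.828 ± 0.0484 and 1.37 ± 0.254. From the lowest to the highest of the 57 genes, mean levels differed 3.55-fold for PBRM1 and 3.50-fold for BRG1.

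The order of the genes was largely shared by the antibodies. Across the 57 genes, mean log2 levels of PBRM1 and BRG1 had a Pearson correlation of 0.86 and a Spearman correlation of 0.82. Between replicates of one antibody, the Pearson correlation was 0.73 to 0.76 for PBRM1 and 0.68 to 0.80 for BRG1. These are correlations across genes, which share libraries, depth and local chromatin, and they carry no test. The SD among the genes was 0.36 for PBRM1 and 0.41 for BRG1 on the log2 scale, and the median SD between replicates of a gene was 0.22 for each antibody, so neighbors in this order do not differ beyond their spread.

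All 4 genes on the X chromosome were below the median level or had little support. *Rpl36a*, *Rpl39* and *Rpl10* were at percentiles 3.48, 20.1 and 38.7 of the tested genes, and *Rps4x* had a peak in 2 lists, of 0.72 and 0.70 FPM. Genes of the X chromosome as a whole were also lower. The median level over 166 X-linked genes with full support was 0.92 for PBRM1 and 1.35 for BRG1, against 1.29 and 1.96 over 8926 autosomal genes. On the autosomes, 54 of 78 ribosomal protein genes had full support (69.2%), with medians of 1.37 and 2.00. Over all genes, 42.9% of autosomal and 17.5% of X-linked genes had full support.

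**Figure D2:**
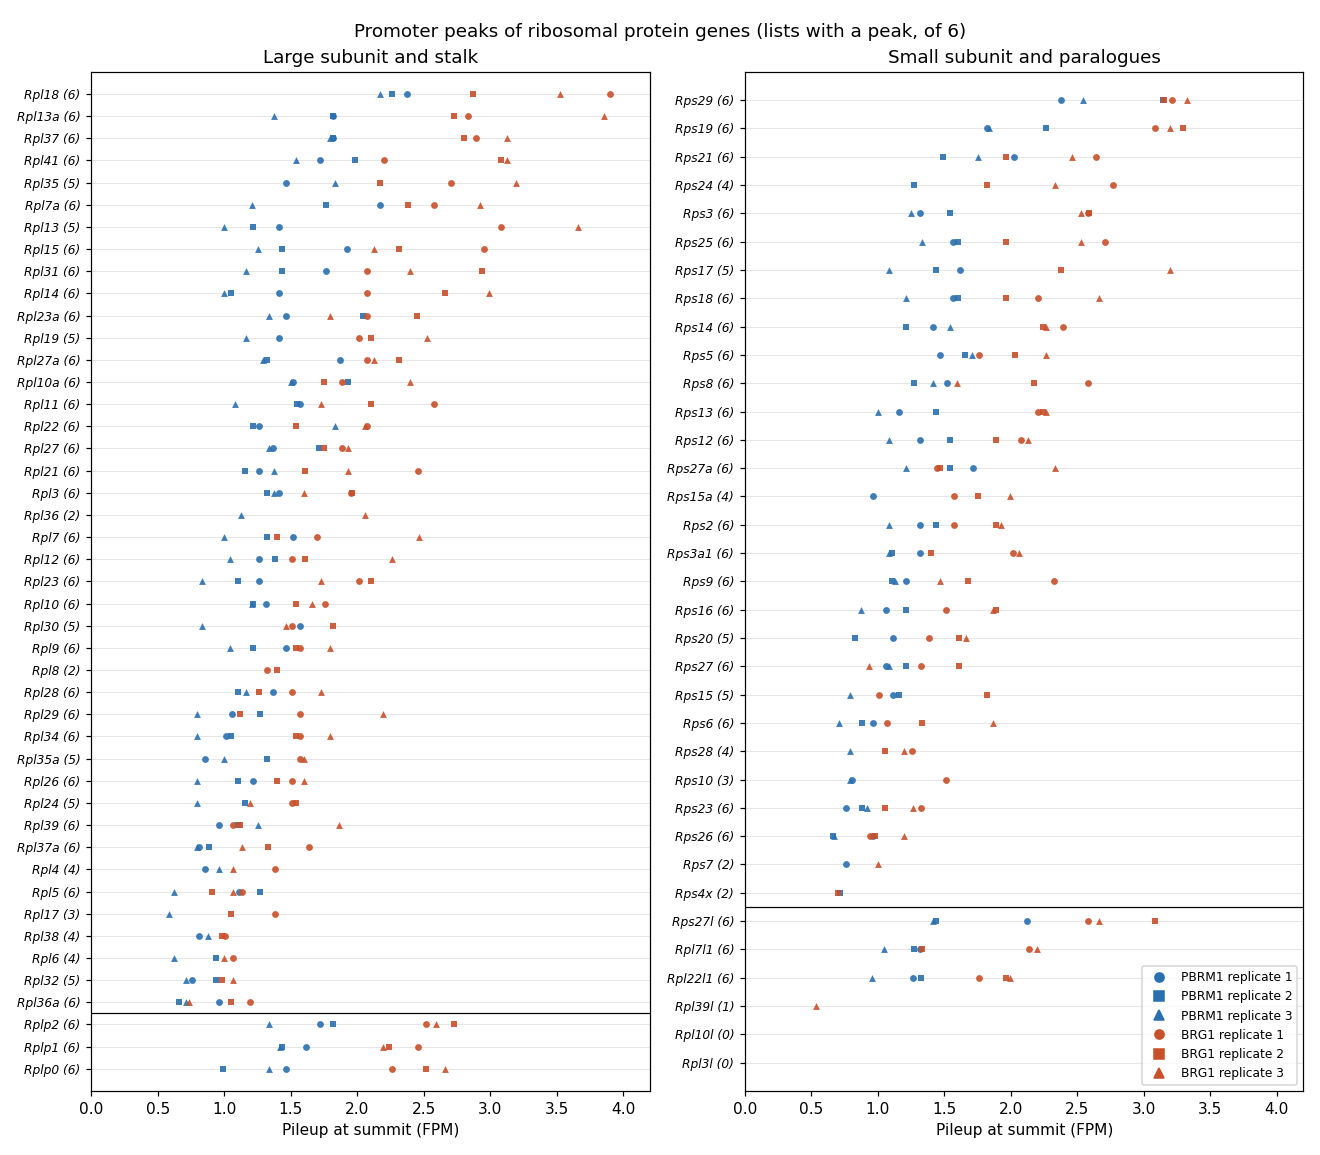
Each point is the pileup at the summit (FPM) of 1 replicate library (blue PBRM1, red BRG1; circle, square and triangle for replicates 1, 2 and 3), for 80 of the 82 genes in order of the mean within large subunit, stalk, small subunit and paralogues, with the number of lists with a peak in parentheses. BRG1 points lie to the right of PBRM1 points in most rows, *Rpl18* and *Rps29* lead their subunits, and *Rpl3l* and *Rpl10l* have no point.

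The antibodies were then compared gene by gene with limma on log2 FPM, over the 9102 genes with a peak in all 6 lists. Over all genes tested, the median log2 difference (BRG1 minus PBRM1) was 0.59, a shift of the whole scale, and 75% of genes were called higher for BRG1 at an adjusted p (Benjamini-Hochberg) under 0.05. The groups are different antibodies, so a higher FPM for BRG1 cannot be read as more BRG1 than PBRM1 protein at a promoter. Of the 57 ribosomal protein genes, 44 were called higher for BRG1, and their median difference was 0.62. By limma, none was called higher for PBRM1, against 0.0989% of genes tested, and none had an unadjusted p under 0.05 in that direction, against 0.121%. With limma's trend and robust options none was called higher for PBRM1 either, against 0.165%. In 44 of 57 genes all BRG1 values were above all PBRM1 values, against 73.3% of genes tested. By role, the calls took in 21 of 30 large-subunit, 3 of 3 stalk, 17 of 21 small-subunit and 3 of 3 paralogue genes.

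When each library was centered on its own median, the shift was removed and no ribosomal protein gene was called in either direction by limma, against 0.187% of genes tested for BRG1 and 0.582% for PBRM1. At an unadjusted p under 0.05, 2 of the 57 were relatively higher for BRG1 (5.65% of genes tested) and 3 for PBRM1 (8.88%). After centering, all BRG1 values lay above all PBRM1 values in 6 of the 57 (8.17% of genes tested) and below them in 4 (9.98%). With fold enrichment in place of pileup, 9 of the 57 were called higher for BRG1, against 15.7% of genes tested, and the median difference was 0.23 both over the 57 and over all genes tested.

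The 5 largest differences were at *Rpl14*, *Rplp0*, *Rps13*, *Rps3* and *Rpl13a*. *Rpl14*, a surface protein of the large subunit, had 1.41, 1.05 and 1.00 FPM for PBRM1 and 2.08, 2.66 and 2.99 for BRG1, with no overlap. Its log2 difference was 1.16 (SE 0.20, limma adjusted p = 0.000153), and 0.54 after centering (limma adjusted p = 0.16). *Rplp0*, the base of the stalk that recruits translation factors, had 1.47, 0.99 and 1.33 for PBRM1 and 2.26, 2.52 and 2.66 for BRG1. Its log2 difference was 0.99 (SE 0.19, limma adjusted p = 0.00032), and 0.37 after centering (limma adjusted p = 0.34). The other stalk genes had means of 1.49 ± 0.111 for PBRM1 and 2.30 ± 0.138 for BRG1 at *Rplp1*, and 1.62 ± 0.257 and 2.61 ± 0.108 at *Rplp2* (SD, n = 3).

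*Rps3*, a small-subunit protein at the mRNA entry channel, had 1.31, 1.54 and 1.25 FPM for PBRM1 and 2.58, 2.59 and 2.53 for BRG1, so the replicates of each antibody were close. *Rps13* had 1.16, 1.43 and 1.00 for PBRM1 and 2.20, 2.24 and 2.26 for BRG1. Both had a log2 difference of 0.91 by limma, and *Rpl13a* had 0.90. After centering, the differences of *Rps3*, *Rps13* and *Rpl13a* were 0.29, 0.30 and 0.29, and none was called. With fold enrichment, *Rpl13a* had a log2 difference of 0.24 and was not called (limma adjusted p = 0.31), while the other 4 genes were called.

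The 5 smallest differences were at *Rpl5*, *Rps27*, *Rps27a*, *Rpl39* and *Rps29*, and none was called. *Rpl5*, which carries 5S ribosomal RNA into the ribosome, had 1.11, 1.27 and 0.63 FPM for PBRM1 and 1.13, 0.91 and 1.06 for BRG1. Its log2 difference was 0.10 (95% interval -0.34 to 0.55), and without PBRM1 replicate 3, its lowest value, it was -0.20. *Rps27a*, which encodes a fusion of ubiquitin and a small-subunit protein, had 1.72, 1.54 and 1.21 for PBRM1 and 1.45, 1.47 and 2.33 for BRG1. Its difference was 0.21 (95% interval -0.21 to 0.63), and its summits lay nearer to the start of *Clhc1* in all 6 lists. The differences of *Rps27*, *Rpl39* and *Rps29* were 0.17, 0.25 and 0.27. After centering, all 5 were below 0, from -0.51 at *Rpl5* to -0.34 at *Rps29*, and the PBRM1 and BRG1 values of *Rpl5*, *Rps27*, *Rps27a* and *Rpl39* in FPM overlapped.

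**Figure D3:**
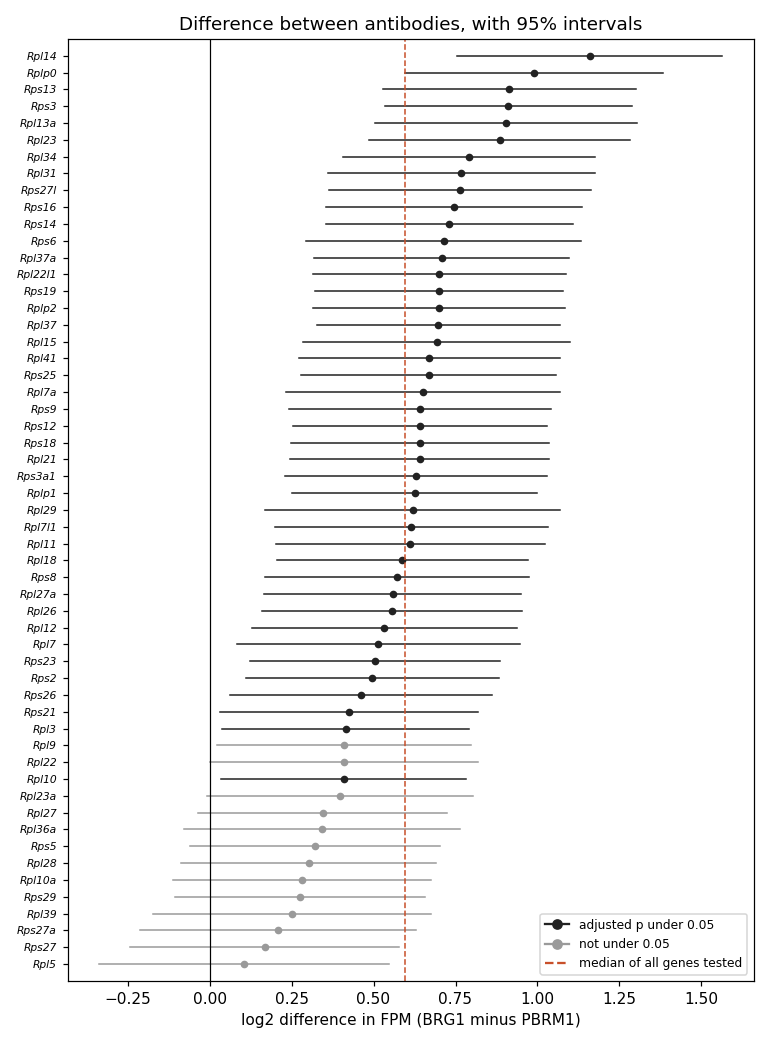
Points show the log2 difference in FPM (BRG1 minus PBRM1) of 55 genes with a peak in all 6 lists and bars their 95% intervals from limma, black where the adjusted p was under 0.05 and gray elsewhere; the dashed line is the median of all genes tested, 0.59. All 55 points lie above 0, and they spread around the dashed line from 0.10 at *Rpl5* to 1.16 at *Rpl14*.

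The position of the summits was measured from the start of the main transcript, with negative values upstream. For the 57 genes, the median over 6 lists was taken per gene. The median of these was -73 bp, with quartiles at -140.5 and 36 bp, against -29 bp for all 9102 genes, with quartiles at -159.5 and 114 bp. The summit was upstream in 37 of the 57 genes (64.9%, against 56.2% of all genes). It was within 300 bp of the start in 53 (93.0%, against 73.6%). Beyond 1000 bp lay 2 of the 57 genes (3.51%), against 12.7% of all genes.

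By library, the median summit over the listed ribosomal protein genes was at -81, -80 and -66 bp for PBRM1 and at -3.5, -57 and -26.5 bp for BRG1. The PBRM1 libraries were all farther upstream than the BRG1 libraries, at -75.7 ± 8.39 bp against -29.0 ± 26.8 bp (SD, n = 3), but the gap between the nearest libraries, -66 and -57 bp, was smaller than the spread among the BRG1 libraries. Over other genes the libraries were at -23.7 ± 15.1 bp for PBRM1 and -15.3 ± 1.53 bp for BRG1, where the antibodies overlapped. No test was made of these medians over genes.

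Within a gene, the 6 summits ranged over a median of 224 bp, against 242 bp for all genes. A range of 100 bp or less was found in 15 of the 57 genes (26.3%, against 19.6%). *Rpl18* was among the tightest, with summits from -120 to -99 bp, over the 150 bases printed above. *Rps29* had summits from -97 to -53 bp, also within its printed sequence. *Rpl14* had them from 0 to 39 bp.

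Farthest upstream were *Rpl3* and *Rpl7*, with median summits at -285.5 and -265.5 bp. *Rpl3*, a protein near the peptidyl transferase center, had PBRM1 summits at -310, -301 and -275 bp and BRG1 summits at 0, -296 and -25 bp, so that 2 BRG1 libraries had the highest point near the start. Farthest downstream were *Rps18*, *Rpl41* and *Rps25*, at 4331.5, 1697 and 355 bp. In each of them, most summits lay nearer to the start of another gene.

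*Rps18* had its 6 highest summits 4251 to 4378 bp downstream of its main start, near an annotated start of a longer transcript and 62 to 189 bp from the start of *B3galt4*, a glycosyltransferase gene. With the main start alone, *Rps18* had summits at -62, -31 and -32 bp for PBRM1, with 0.76, 0.88 and 0.79 FPM, and at -276 and -163 bp in BRG1 replicates 1 and 3, with 1.38 and 1.26. It then had no peak in BRG1 replicate 2. It was the only one of the 82 genes whose number of lists changed with that choice. *Rpl41*, which encodes the smallest ribosomal protein, had 5 summits 58 to 197 bp from the start of *Zc3h10*, a gene for a zinc finger protein, and a summit at 86 bp from its own start in PBRM1 replicate 3.

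Other genes share a promoter with a neighbor. A divergent gene began within 1000 bp of 14 of the 82 genes, 11 of which had a peak in all 6 lists, and 9 of these 11 had their median summit upstream. Among the 46 fully supported genes without such a neighbor, 28 had the summit upstream. In *Rpl15* all 6 summits and in *Rpl7a* 5 of 6 were nearer to the start of the divergent gene, *Nkiras1* and *Med22* respectively. Of the 80 genes with a peak, 9 had summits nearer to another gene in at least as many lists as to their own start. Peaks at such promoters cannot be assigned to one gene of the pair.

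**Figure D4:**
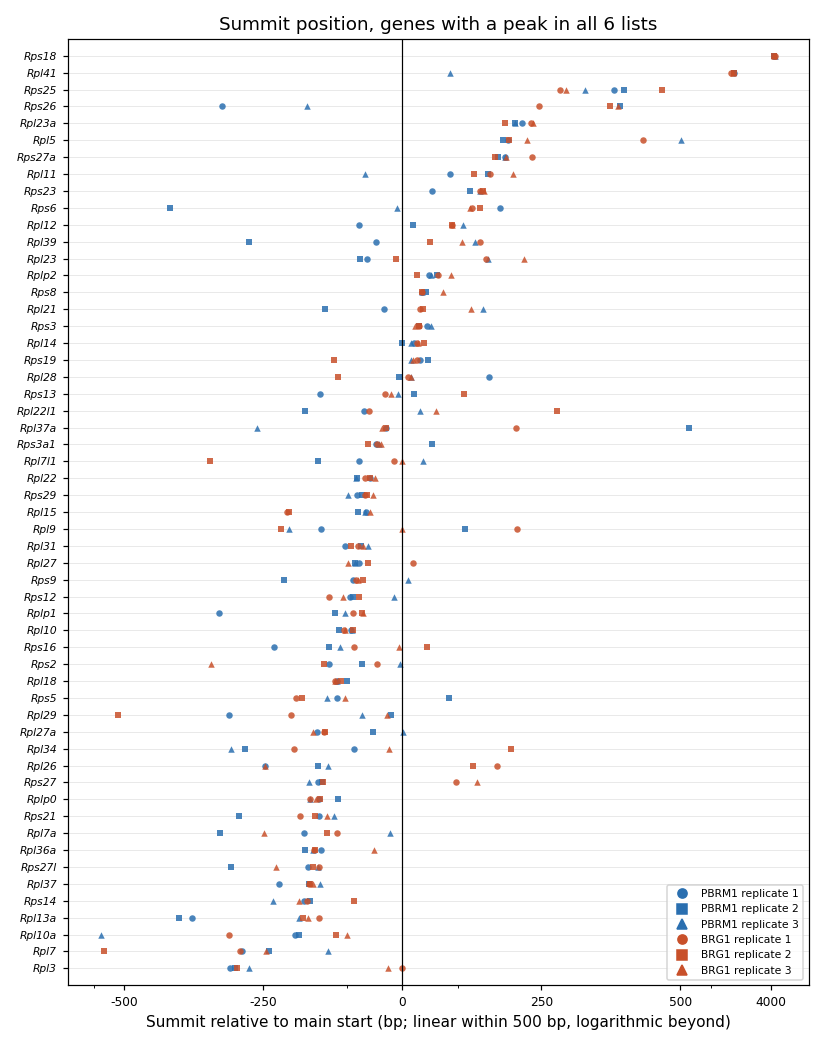
Each point is the summit of 1 replicate library relative to the main start (bp, negative upstream; linear within 500 bp and logarithmic beyond), for 55 genes with a peak in all 6 lists in order of their median; colors and shapes stand for antibody and replicate as in the legend. Most summits lie within 300 bp of the start, and those of *Rps18* and 5 of *Rpl41* lie over 1000 bp downstream.

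Peak width, the deposited length in bp, had a median of 497, 543 and 461 bp over the listed ribosomal protein genes in the PBRM1 libraries and 585.5, 588.5 and 589 bp in the BRG1 libraries. The means were 500 ± 41.1 and 588 ± 1.89 bp (SD, n = 3), without overlap. Other genes had 490 ± 11.5 bp for PBRM1 and 527 ± 22.5 bp for BRG1, also without overlap. Gene by gene, limma called 0 of the 57 different in width between antibodies, against 0.022% of genes tested, and 7 had an unadjusted p under 0.05, all wider for BRG1, against 8.25% of genes tested wider for BRG1 and 2.25% wider for PBRM1 at that threshold. The largest of these was at *Rpl26*, with widths of 233, 285 and 235 bp for PBRM1 and 723, 702 and 713 bp for BRG1 and a log2 difference of 1.51 (limma adjusted p = 0.07). All BRG1 widths were above all PBRM1 widths in 10 of the 57 genes, against 11.6% of genes tested.

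*Rps27l*, *Rpl10a* and *Rps27a* had the widest peaks, with means over 6 lists of 974, 857 and 853 bp. *Rps27l* had 914, 1009 and 642 bp for PBRM1 and 1137, 1116 and 1025 bp for BRG1, so that every BRG1 peak was wider. *Rpl23a* and *Rps26* had the narrowest, with means of 254 and 277 bp. *Rpl23a*, a protein at the exit of the peptide tunnel, kept a narrow peak in every library, with 286, 308 and 247 bp for PBRM1 and 226, 240 and 219 bp for BRG1, while its level was at percentile 65.9. The median width percentile of the 57 genes among all genes tested was 49.6. More than one peak within the window was found at 12.7% ± 3.25 of ribosomal protein genes for PBRM1 and 9.98% ± 1.97 for BRG1, and at 22.6% ± 1.94 and 22.9% ± 1.48 of other genes (SD, n = 3).

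The sequence around the starts, which the choice of genes did not use, was then searched. The window ran from 250 bases before to 50 after the main start, 300 bases in all, on both strands. The ETS word CGGAAG was in 47 of 82 windows (57.3%), against 20.7% of 21938 windows of protein-coding genes. The ZBTB33 palindrome, named after a zinc finger protein known to bind it, was in 7 (8.54%, against 0.606%), *Rps6*, *Rpl10a* and *Rpl26* among them. The YY1 word AAGATGG was in 11 (13.4%, against 6.32%). The SP word GGGCGG was in 43 (52.4%, against 45.4%), the E box CACGTG in 9 (11.0%, against 7.72%) and the TATA box word TATAAA in 10 (12.2%, against 12.6%).

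An annotated start at C with at least 4 further pyrimidines was found in 8 of the 82 genes (9.76%, against 2.27%), with *Rps24*, *Rpl32*, *Rps21* and *Rpl37* among them. The tract depends on the exact base annotated as the start. Of the genes, 62 were also in a RefSeq promoter table of the same build, and 15 had the same start there. The count of tracts, the printed windows and the summit positions all rest on the GENCODE starts and could shift with another annotation. In the printed line of *Rps29*, for instance, no capital tract stands at the annotated start. Matches are descriptions of letters and not of bound factors.

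The words were spread over genes with full and partial support. CGGAAG was in 34 of the 57 genes with a peak in all 6 lists and in 13 of the other 25. The palindrome was in 4 of the 57 and 3 of the 25, and the start tract in 4 of each. GC content was 56.7% in the 57 (median), 52.7% in the 25 and 56% in all genes. The median number of CpG dinucleotides per window was 22 in the 57, 16 in the 25 and 12 in all genes. *Rps29*, with the highest level, held none of the marked words in its printed sequence, and *Rps6*, with CGGAAG in 2 places and the palindrome, had a level at percentile 13.0. In BRG1 replicates its pileups were 1.07, 1.33 and 1.86 FPM, and in PBRM1 replicates 0.96, 0.88 and 0.71.

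**Figure D5:**
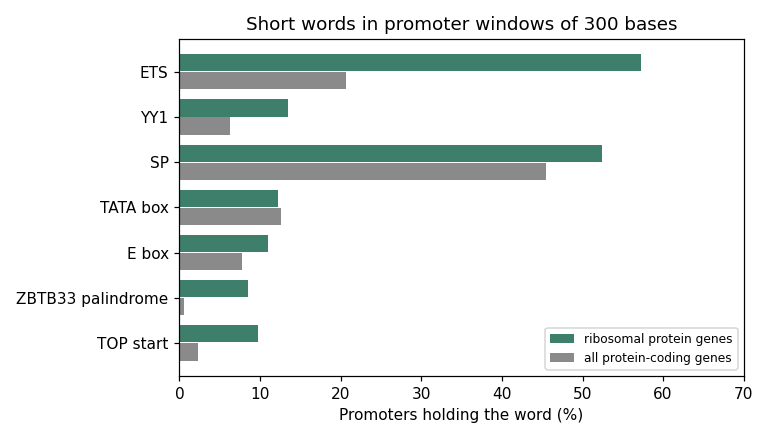
Bars show the share of promoter windows (%) holding each word, for the 82 ribosomal protein genes (green) and all 21938 windows of protein-coding genes (gray). The ETS word stands out with 57.3% against 20.7%, and the TATA box is nearly equal at 12.2% and 12.6%.

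Related gene lists were compared between antibodies in the same fit. Of the 70 mitochondrial ribosomal protein genes tested, limma called 60 higher for BRG1, and of the 14 with other TOP mRNAs 11. It called 11 of the 18 of ribosome biogenesis and 5 of the 5 ribosomal proteins outside the symbol rule, against 75% of all genes tested. The median log2 differences of these lists were 0.66, 0.70, 0.45 and 0.92, in that order, beside 0.59 over all genes tested. None of their genes was called higher for PBRM1, against 0.0989% of genes tested. After centering, 1 mitochondrial ribosomal protein gene was called higher for BRG1 and no gene of the other lists in either direction. The shares over all genes tested were then 0.187% for BRG1 and 0.582% for PBRM1. *Rpsa*, a small-subunit protein also described as a laminin receptor, had 1.26, 1.16 and 1.58 FPM for PBRM1 and 2.33, 2.31 and 3.26 for BRG1. *Rack1*, a scaffold protein on the small subunit, had 1.21, 1.54 and 1.54 for PBRM1 and 2.08, 1.68 and 2.06 for BRG1, and its summits lay from -498 to -246 bp.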

How the data were processed

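ChIC-Seq peak lists of 6 replicate libraries and 2 pooled lists were used. Per the labels, the authors used cutadapt, Bowtie2, MACS2 and GRCm38.p5. Peak calling by the authors used MACS 2.2.7.1 per the file headers, in narrow mode on paired-end fragments, at a q cutoff of 0.05 and with no control. The deposited pileup is the fragment coverage (signal) at the summit, the deposited fold enrichment is its ratio to a local background taken from that library, and −log10 q and length in bp were also deposited by the authors. The study's available methods describe other cells, so filters on mapping quality and duplicates are not given in the sources used here. Without a control, sites cut regardless of antibody could be called too.

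Genes, transcripts and starts came from GENCODE vM21. The main start was that of the principal APPRIS transcript, then of the best supported and the longest. Per gene and list, the peak with the highest pileup within 2 kb of any start was taken, and pileups were scaled to 1000000 header fragments (FPM). Genes with a peak in all 6 lists (9102) were fitted with limma 3.58.1 in R 4.3.3 on log2 values without a pseudocount, with no covariate and p-values adjusted over all of them. On simulated data for the BRG1 against PBRM1 pileup comparison over 9102 genes, 71 of 100 genes changed by 1 log2 unit and 97 of 100 changed by 2 were recovered. Of the unchanged genes, 6 were called. No shift of the whole scale was simulated, so recovery can differ in the real comparison, where 75% of genes were called higher for BRG1. Sequence was read with pysam 0.24.0 and samtools 1.23.1 from GRCm38.p6, and repeated words were counted around the main start and not the summit, so that genes without a peak had a value. Python 3.11.15 and pandas 2.3.3 were used.

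The genes named were those with no peak, those with peaks for 1 antibody only, paralogues with their parents, the 5 highest and lowest in level, the 5 largest and smallest differences, the 3 farthest upstream and downstream, the 3 widest and narrowest, and the 5 ribosomal proteins outside the symbol rule. *Rps24*, *Rpl13*, *Rpl15*, *Rpl7a*, *Rps28*, *Rps15a*, *Rps4x*, *Rps6*, *Rpl26* and the genes listed for sequence words were named after their values were seen. The gene list and the tests were chosen with earlier results of these data known. Some genes are counted but not reported here by name, in the text or in the plots.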

Additional observations from a re-analysis of the deposited data

How the results depend on the processing

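Of 257 values recomputed under alternatives, 229 were counted as the same. For single genes this meant the same direction and side of the threshold, and for medians a change within the SD between libraries. For counts it meant within 1.5 times, whatever the number of genes tested. With genes listed in at least 3 lists and missing values at the lowest pileup, 35 of 75 ribosomal protein genes were called higher for BRG1, against 5743 of all 12464 genes tested. With −log10 q of at least 5, 8 of the 82 genes had no peak in any list, a count for which no share over all genes is given. Peaks in all 6 lists were then found at 39 of the 82 genes, against 5932 of 21951 protein-coding genes. At that cutoff, median widths were 544 bp for PBRM1 and 609.5 bp for BRG1, and the median PBRM1 pileup was 1.38 FPM. The BRG1 width was 585 bp with the 1 kb window and 583 bp with the peak nearest the start. After median-centering, 0 genes were called higher for BRG1 and the median difference was 0.0028; with fold enrichment, 9 were called (15.7% of all genes tested) and the median was 0.23. Centering by construction removes the shift, and the cause of the change with fold enrichment was not tested. Differences below 0 were, after centering, -0.51 at *Rpl5*, -0.45 at *Rps27*, -0.41 at *Rps27a*, -0.37 at *Rpl39* and -0.34 at *Rps29*. With fold enrichment they were -0.0096 at *Rpl5*, -0.045 at *Rps27* and -0.033 at *Rps29*. Leaving out each library in turn gave -0.20 to 0.31 at *Rpl5*, -0.011 to 0.38 at *Rps27*, -0.016 to 0.33 at *Rps27a* and -0.0050 to 0.40 at *Rpl39*, and the values below 0 came without PBRM1 replicate 3, BRG1 replicate 2 and, for the last 2 genes, BRG1 replicate 3. The same step gave 34 to 45 genes called higher for BRG1. The 34 came without PBRM1 replicate 3 (5440 of all 9526 genes tested were called), BRG1 replicate 1 (5706 of 9182) or BRG1 replicate 3 (5404 of 9225). The 45 came without PBRM1 replicate 1 (6704 of 9326). A peak in all remaining lists was found at 58 to 60 of the 82 genes, against 9182 to 9613 of 21951 protein-coding genes.

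The labels do not say whether libraries of the same number are paired. Deviations of same-numbered libraries correlated at -0.012, 0.025 and -0.010 over 9102 genes. These values cannot settle the question, since counting error in the peaks could hide a pairing. With the replicate number as a block, 41 of 57 genes were called higher for BRG1, against 73.3% of all genes tested. Pileups of 8 to 62 fragments limit the precision of single ribosomal protein genes.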
